A study of Mus musculus with 24 samples.

Results

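The genes described here are 44 genes of mouse chromosome 9 chosen from a list of symbols for their place near Atm, among 34113 genes in the deposited table. The rule uses no measured value, and all 44 symbols were found. The list was chosen, however, with earlier results of these data known. The data are 3′ tag RNA sequencing counts from splenic T lymphocytes of C57BL/6N mice, prepared with a T cell isolation kit and labelled by the co-receptor CD4 or CD8. Mice were Atmwt/wt (WT) or Atm-/- (KO), and either carried a transplanted B-cell lymphoma (lymphoma) or had no transplant (control). This gave 8 groups of 3 libraries, 24 in all, made from 12 pools that held 22 mice. Every lymphoma library of the WT genotype came from 1 mouse and every other library from a pool of 2 or 3, and the CD4 and CD8 library of a pool share their mice. The labels give neither the ages of the mice, nor the targeted allele of Atm, nor how CD4 and CD8 cells were separated.

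Total counts ran from 6470482 to 10196062 per library. Levels are counts of a gene per 1000000 counts of the library (CPM) after trimmed-mean scaling. Differences are log2 values, KO minus WT unless stated, with the standard error after ±, and the words rose and fell stand for a Benjamini-Hochberg adjusted p under 0.05 over all genes tested by edgeR's quasi-likelihood test. The co-receptor labels held in the data, with Cd8a 5.48 ± 0.31 higher and Cd4 lower by a difference of -4.78 ± 0.24 in CD8 than in CD4 libraries. Markers of other cells were present in all libraries, and some moved with genotype. Across the 12 pools, 10 of 14 monocyte and macrophage genes, 7 of 8 platelet genes and 6 of 10 natural killer cell genes were higher in KO, while 5 of 15 pan-T genes were lower. Of 9 erythroid genes 2 were higher, with a median difference of 2.49, and none of 10 neutrophil genes passed (median 1.41). None of 15 B cell genes passed (median difference 1.30), nor did any of 3 Y-linked genes (median -1.91), which track the sex mix of the pools. The Y-linked genes summed to 68.5, 199 and 121 CPM in WT and 2.57, 1.21 and 56.4 in KO CD4 controls. With lymphoma the CD4 sums were 4.71, 1.80 and 114 in WT and 0.926, 3.08 and 45.9 in KO. The sex mix thus differed between genotypes in controls, where the 2 cannot be fully told apart. In bulk samples, fewer cells of a type and less RNA per cell cannot be told apart.

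Atm encodes a serine/threonine kinase that is activated by DNA double-strand breaks and signals to cell cycle checkpoints and repair, and T cells depend on it while they rearrange their antigen receptor genes. A gene targeted in stem cells of one mouse strain and then crossed to another carries along a stretch of the donor chromosome on either side, so neighbours of a knocked-out gene are commonly examined for differences that come with the stretch rather than with the gene. The sources used here do not state whether such a stretch is present in these mice, and no sequence variant was examined.

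The name of the group holds for 42 of the 44 genes. On GRCm38 (GENCODE M21 annotation) Atm lies on the minus strand of chromosome 9 from 53439149 to 53536740. Of the members, 8 lie within 0.235 Mb of it: Ddx10, Exph5 and Kdelc2 at lower and Npat, Acat1, Cul5, Rab39 and Slc35f2 at higher coordinates. A block of 19 lies 1.27 to 4.96 Mb away at lower coordinates, from Zc3h12c to Rexo2, and a block of 15 lies 3.46 to 6.21 Mb away at higher coordinates, from Ptpn9 to Myo9a. The remaining 2, Alkbh8 (3335140 to 3391154) and Cwf19l2 (3403592 to 3479236), lie 50.05 and 49.96 Mb from Atm near the start of the chromosome and do not flank it. All 44 are annotated as protein-coding genes. On the opposite strand, 7 overlap another annotated gene. Among them Il18 overlaps Bco2 and Tex12, Hexa overlaps Tmem202, and the members Ppp2r1b and Sik2 overlap each other. The sources used here do not say whether counting used strand, so tags of such pairs may not be separated.

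The closest member is Npat, which encodes a coactivator of histone genes at the start of S phase and is read in the opposite direction from Atm. Its annotated start lies 306 bases beyond the 5′ end of Atm, and the 250 bases before the Npat start share 125 bases with the 250 bases before the Atm start. The stretch is shown because both genes start from it, and those of Rab39, Usp28 and Il18 because these members differed between genotypes by the most among called members with a promoter entry (RefSeq, GRCm38.p6, 41 of 44 members matched). No entry was found under the symbol Kdelc2, a gene for which RefSeq uses another name. Each run is the 250 bases before the start, read 5′ to 3′ on the strand of the gene, at chr9:53536797-53537046, plus strand for Npat, chr9:53706233-53706482, minus strand for Rab39, chr9:48985135-48985384, plus strand for Usp28 and chr9:50554450-50554699, plus strand for Il18. Capitals mark GGGCGG, the core of a GC box, CCAAT, and TATAAA, each on either strand, so that a reverse complement is marked too, and no match overlaps one of another motif.
Npat: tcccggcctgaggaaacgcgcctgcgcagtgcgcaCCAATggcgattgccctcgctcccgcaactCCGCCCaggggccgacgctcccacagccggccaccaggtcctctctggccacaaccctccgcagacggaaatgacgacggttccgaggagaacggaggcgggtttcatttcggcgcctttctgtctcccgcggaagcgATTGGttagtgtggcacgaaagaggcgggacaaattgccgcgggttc
Rab39: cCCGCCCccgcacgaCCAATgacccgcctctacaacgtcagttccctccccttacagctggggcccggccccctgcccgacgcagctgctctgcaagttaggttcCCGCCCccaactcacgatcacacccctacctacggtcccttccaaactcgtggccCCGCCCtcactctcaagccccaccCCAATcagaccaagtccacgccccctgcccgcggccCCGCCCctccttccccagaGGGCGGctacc
Usp28: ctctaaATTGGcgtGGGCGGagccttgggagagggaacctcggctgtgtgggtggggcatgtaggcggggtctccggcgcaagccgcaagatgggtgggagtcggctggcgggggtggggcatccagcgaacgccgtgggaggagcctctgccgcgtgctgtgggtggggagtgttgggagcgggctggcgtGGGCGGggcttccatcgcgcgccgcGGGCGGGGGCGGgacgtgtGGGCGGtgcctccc
Il18: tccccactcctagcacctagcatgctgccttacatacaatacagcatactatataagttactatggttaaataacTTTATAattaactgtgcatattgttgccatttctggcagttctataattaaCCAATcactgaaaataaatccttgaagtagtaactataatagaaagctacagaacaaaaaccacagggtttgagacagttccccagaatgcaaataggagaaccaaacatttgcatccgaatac
The Rab39 and Usp28 stretches each hold 5 copies of GGGCGG, the Npat stretch holds 1 and the Il18 stretch none, where 32.7% of 32851 mouse promoter stretches of this length hold at least 1. CCAAT was found in all 4, and in 33.8% of all stretches. TATAAA was found only in that of Il18 among these 4, and in 12.4% of all stretches. The G and C content was 35.6% before Il18 and 73.2% before Usp28. These are matches of letters and no measurement of binding.

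Atm itself was examined first, as a check of the labels. In CD4 control libraries its level was 190.4, 188 and 152 CPM in WT and 79.6, 84.8 and 82.1 in KO. With lymphoma the CD4 libraries had 150.5, 173 and 114 in WT and 70.3, 102 and 23.99 in KO. In CD8 libraries the levels were 218, 203 and 192 in WT and 88.8, 108 and 113 in KO controls, and 194, 161 and 172 in WT and 87.7, 97.3 and 40.5 in KO with lymphoma. Each KO library was lower than each WT library of its cell type and condition, and the library labelled KO lymphoma 3 was the lowest in both cell types. Over the 12 mouse pools, in which the CD4 and CD8 counts of the same mice were summed, Atm fell (-1.13 ± 0.22, adjusted p = 0.0171, a level 2.19 times lower in KO), and it fell in the average over both conditions in CD4 (-1.14 ± 0.27, adjusted p = 0.032) and CD8 libraries (-1.09 ± 0.17, adjusted p = 0.00697). It did not pass in any of the 4 single comparisons (adjusted p from 0.0567 to 0.365). Atm tags remained in every KO library. Where along the transcript they lie was not tested.

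A few libraries stood apart for several of these genes at once. In the pool labelled KO lymphoma 3, Myo9a, a myosin gene, stood low. The CD4 levels of Myo9a in KO lymphoma 1, 2 and 3 were 53.9, 59.1 and 10.02 CPM and the CD8 levels 53.7, 52.1 and 13.3. Those of Cwf19l2 were 77.5, 90.5 and 22.3 in the CD4 libraries, against 70.5, 79.3 and 23.9 among the CD8 ones. This pool was also the lowest in Atm and Usp28 and the highest in Ppp2r1b and Fdx1 in each cell type. Its CD4 library had the lowest summed pan-T markers of all CD4 libraries (1850 CPM). Without this pool Atm still differed by -0.96 ± 0.08 (adjusted p = 0.000796), Usp28 by -0.67 ± 0.11 (adjusted p = 0.00947) and Ppp2r1b by 0.32 ± 0.08 (adjusted p = 0.0309), and the same 7 members were called over the pools as with it. The library CD8 KO lymphoma 1 had the highest summed erythroid (68900.5 CPM, where the others had at most 33827) and neutrophil markers (3660 CPM, where the others had at most 735) of all 24 libraries, and the lowest summed pan-T markers (1541 CPM). Without the pool KO lymphoma 1, Kdelc2, Il18, Hexa, Cox5a and Usp28 were still called over the pools, and Rab39 and Ppp2r1b were not. CD8 KO control 1 was high in Exph5, Sik2 (39.4, 9.21 and 8.07 CPM in the 3 CD8 KO controls), Dixdc1 (2.44 CPM) and Arhgap20 (1.68 CPM), and low in Ulk3 (25.3 CPM, where the other CD8 libraries had at least 41.6) and Sin3a (20.6 CPM, where the others had at least 29.1). Its partner CD4 library, from the same mice, had Exph5 at 2.48, Sik2 at 9.24 and Ulk3 at 51.8 CPM.

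Most genes around Atm did not pass the test between genotypes. Of 41 members that passed the filter on low counts in the pools, 6 rose in KO and 1 fell. Kdelc2, Il18, Rab39, Ppp2r1b, Hexa and Cox5a rose, and Usp28 fell. These 7 are 17.1% of the members tested, where 9.34% of all 13744 genes tested were called, 6.39% higher and 2.95% lower. DESeq2 called 8 of 41 (19.5%), where it called 17.6% of all genes. With sample weights, limma voom also called 8 of 41 (19.5%), where it called 24.7% of all genes. The share of members thus lay above that of all genes or below it, depending on the tool. The median difference was -0.01 over the members and 0.01 over all genes, and the median size of the difference, whatever its sign, was 0.22 and 0.20. Summed over all members, the level was 1702 ± 65.3 CPM (SD, n = 3) in WT and 1667 ± 40.2 in KO controls in CD4 libraries. In CD8 control libraries it was 1692 ± 67.7 and 1678 ± 29.8. With lymphoma it was 1669 ± 14.1 in WT and 1809.7 ± 67.3 in KO CD4 libraries, and 1721 ± 6.18 and 1767 ± 87.6 in CD8 libraries. The summed level thus overlapped between genotypes in 3 of the 4 comparisons, and was higher in all KO libraries in CD4 lymphoma.

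**Figure D1:**
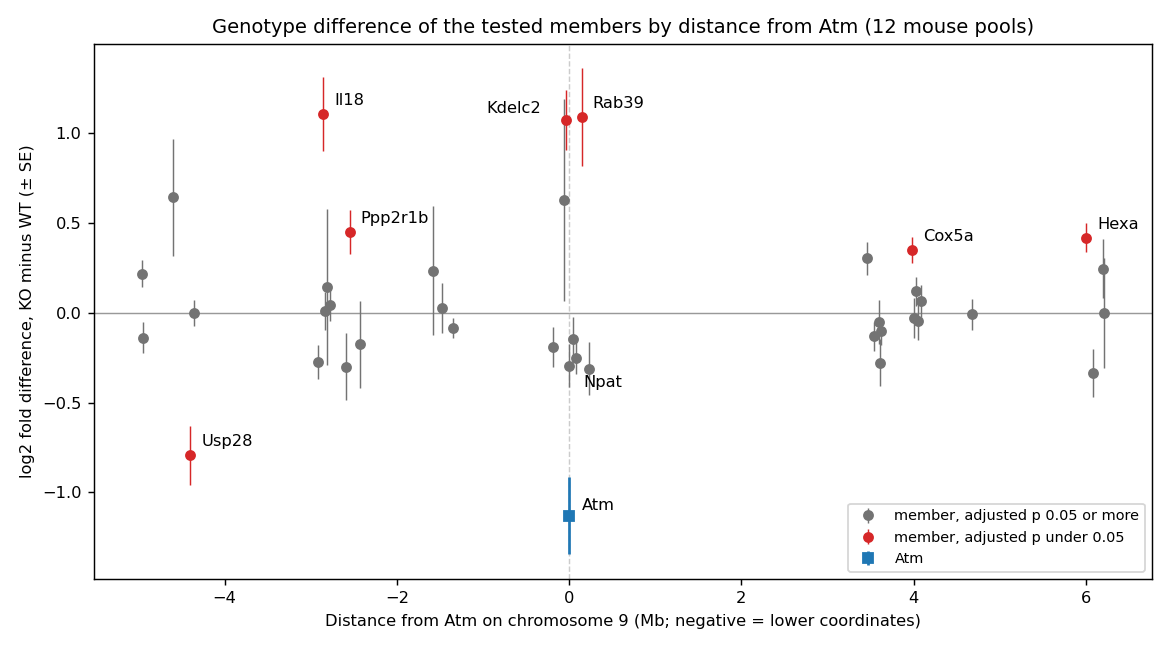
Difference between KO and WT over 12 mouse pools (log2, ± SE, vertical axis) of the members within 7 Mb of Atm that passed the filter, against their distance from Atm in Mb (horizontal axis). Red marks the 7 members with an adjusted p under 0.05, grey the other members and the blue square Atm, and the red genes lie beside Atm as well as 2.54 to 6.00 Mb from it, with most grey genes near 0.

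The single comparisons called few members. In CD4 controls Hexa and Il18 rose, 2 of 39 members tested, where 2.01% of 12808 genes were called and 1.94% were higher. In CD4 lymphoma libraries edgeR called no member and no other gene (0%), and 9 of 39 members (23.1%) had an unadjusted p under 0.05, where 10.9% of all genes did. DESeq2 called 1 member there, Il18, with 0.664% of all genes, and limma voom also called Il18, with 0.632% of all genes. In CD8 controls edgeR called none of 39, where 0.522% of 12650 genes were called, and 7 members (17.9%) had an unadjusted p under 0.05, where 14.7% of all genes did. DESeq2 called 3 members there, Usp28, Cox5a and Kdelc2, with 2.96% of all genes, and limma voom called 4, Usp28, Hexa, Kdelc2 and Rexo2, with 2.89% of all genes. In CD8 lymphoma libraries Usp28 fell, 1 of 39, where 0.245% of all genes were called and 0.174% were lower. Averaged over both conditions, which come from different mice, 4 members rose in CD4 libraries (Il18, Hexa, Kdelc2 and Rab39, where 6.31% of all genes were called and 5.29% were higher). In CD8 libraries 3 rose and 1 fell in this average (Kdelc2, Cox5a and Ppp2r1b higher, Usp28 lower, where 6.45% of all genes were called, 2.85% higher and 3.6% lower).

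Beside Atm, the member with the smallest adjusted p over the pools was Kdelc2, 0.037 Mb from Atm, which encodes a protein O-glucosyltransferase of the endoplasmic reticulum. Its level in CD4 control libraries was 2.10, 3.17 and 2.54 CPM in WT and 6.57, 4.02 and 7.95 in KO, and with lymphoma 3.85, 2.92 and 3.32 in WT and 7.87, 4.51 and 8.45 in KO. The CD8 levels were 1.36, 1.78 and 1.80 in WT and 3.96, 3.47 and 3.79 in KO controls, and 3.42, 3.32 and 2.83 in WT against 5.13, 5.47 and 4.96 in KO with lymphoma. All KO libraries were above all WT libraries of the same cell type and condition, in each of the 4 comparisons. The 6 WT pools had 1.75 to 3.60 CPM (median 2.72) and the 6 KO pools 3.79 to 7.17 (median 5.82), without overlap. Kdelc2 rose there by 1.07 ± 0.17, adjusted p = 0.00871, a level 2.10 times higher in KO. The call held without any 1 of the 12 pools, with adjusted p from 0.00434 to 0.0352. Kdelc2 also rose in the CD4 average (1.14 ± 0.24, adjusted p = 0.0197), where the call was lost without WT control 1, KO control 3, WT lymphoma 2 or KO lymphoma 1. It rose in the CD8 average (0.95 ± 0.19, adjusted p = 0.0161), where the call held without any 1 library. By comparison the differences were 1.23 ± 0.34 in CD4 controls, 1.04 ± 0.33 in CD4 lymphoma, 1.20 ± 0.27 in CD8 controls and 0.69 ± 0.25 in CD8 lymphoma libraries.

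Rab39, 0.147 Mb from Atm on its other side, encodes a small GTPase of vesicle transport and was expressed at a low level. In CD4 libraries it had 0.552, 0.732 and 0.896 CPM in WT and 1.90, 2.21 and 2.503 in KO controls, and 0.869, 1.24 and 0.277 in WT and 3.36, 1.44 and 1.35 in KO with lymphoma. The CD8 libraries had 0.151, 1.07 and 0.840 in WT against 0.457, 1.55 and 0.612 in KO controls, and 1.22, 0.664 and 1.02 in WT against 1.54, 2.17 and 1.24 in KO with lymphoma. The genotypes did not overlap in 3 of the 4 comparisons, and did overlap in CD8 controls. Rab39 rose over the pools (1.09 ± 0.27, adjusted p = 0.0323) and in the CD4 average (1.45 ± 0.37, adjusted p = 0.0389), with 0.55 ± 0.44, adjusted p = 0.451 in the CD8 average. The call over the pools was lost without any 1 of 7 of the 12 pools (WT control 1, each KO control, WT lymphoma 1 or 2, or KO lymphoma 1), with adjusted p up to 0.0744. In the CD4 average it was lost without any 1 of 9 of the 12 libraries (all but WT lymphoma 3 and KO lymphoma 2 and 3).

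The other 6 adjoining genes did not pass in any comparison of genotypes by the edgeR test without a covariate or a block. Npat, which starts beside Atm, had 15.6, 14.4 and 13.6 CPM in WT and 11.5, 14.9 and 11.6 in KO in CD4 controls, and 17.2, 15.7 and 16.2 in WT against 10.4, 12.8 and 15.04 in KO in CD8 controls. In lymphoma mice the CD4 levels were 18.6, 15.7 and 12.5 in WT against 16.1, 13.5 and 11.1 in KO, and the CD8 levels 18.3, 12.4 and 13.6 against 12.4, 12.1 and 8.44. The genotypes overlapped except in CD8 controls, where all KO libraries were lower. Npat was lower in KO by a difference of -0.30 ± 0.12 over the pools, which did not pass (adjusted p = 0.125), where Atm differed by -1.13 ± 0.22.

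Further along on the same side, Acat1 encodes the mitochondrial acetoacetyl-CoA thiolase, and Cul5 the scaffold of ubiquitin ligases that use SOCS-box adaptors. Acat1 had 88.8, 88.1 and 70.6 CPM in WT and 42.8, 72.2 and 56.9 in KO in CD8 controls and 80.02, 84.7 and 71.8 in WT against 41.3, 68.9 and 59.3 in KO in CD8 lymphoma libraries, while in CD4 libraries it ranged over 35.6 to 112. In CD8 controls 1 KO library reached the WT range, and with lymphoma all KO libraries lay below it. The CD8 average difference was -0.49 ± 0.14, adjusted p = 0.0628, and the CD4 average was 0.14 ± 0.25, adjusted p = 0.773. Cul5 had 84.04, 76.8 and 66.5 CPM in WT and 58.4, 61.8 and 65.1 in KO in CD4 controls, and 75.5, 68.5 and 69.0 in WT against 57.7, 64.7 and 62.7 in KO in CD8 controls. KO libraries were lower without overlap in both, and in CD8 lymphoma (67.1 to 75.6 in WT against 47.5 to 66.6 in KO), and overlapped WT in CD4 lymphoma (61.2 to 79.1 against 47.8 to 68.1). Over the pools its difference was -0.25 ± 0.09, adjusted p = 0.0914.

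Slc35f2, a solute carrier gene, had 14.05, 13.5 and 11.98 CPM in WT and 6.05, 10.3 and 8.31 in KO in CD8 lymphoma libraries, without overlap (-0.69 ± 0.21, adjusted p = 0.153), and 10.2 to 14.6 over both genotypes in CD8 controls. Ddx10, an RNA helicase of ribosome biogenesis, ranged over 166 to 244 CPM in WT and 118 to 228.3 in KO libraries, with -0.19 ± 0.11, adjusted p = 0.265 over the pools. Exph5, which encodes an effector of the secretory GTPase Rab27, had 27.7, 2.27 and 1.10 CPM in CD8 KO controls, and 0.367 to 4.63 in all other groups. Its CD8 control difference was 2.18 ± 1.06 with all libraries and -0.46 ± 0.72 without KO control 1.

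**Figure D2:**
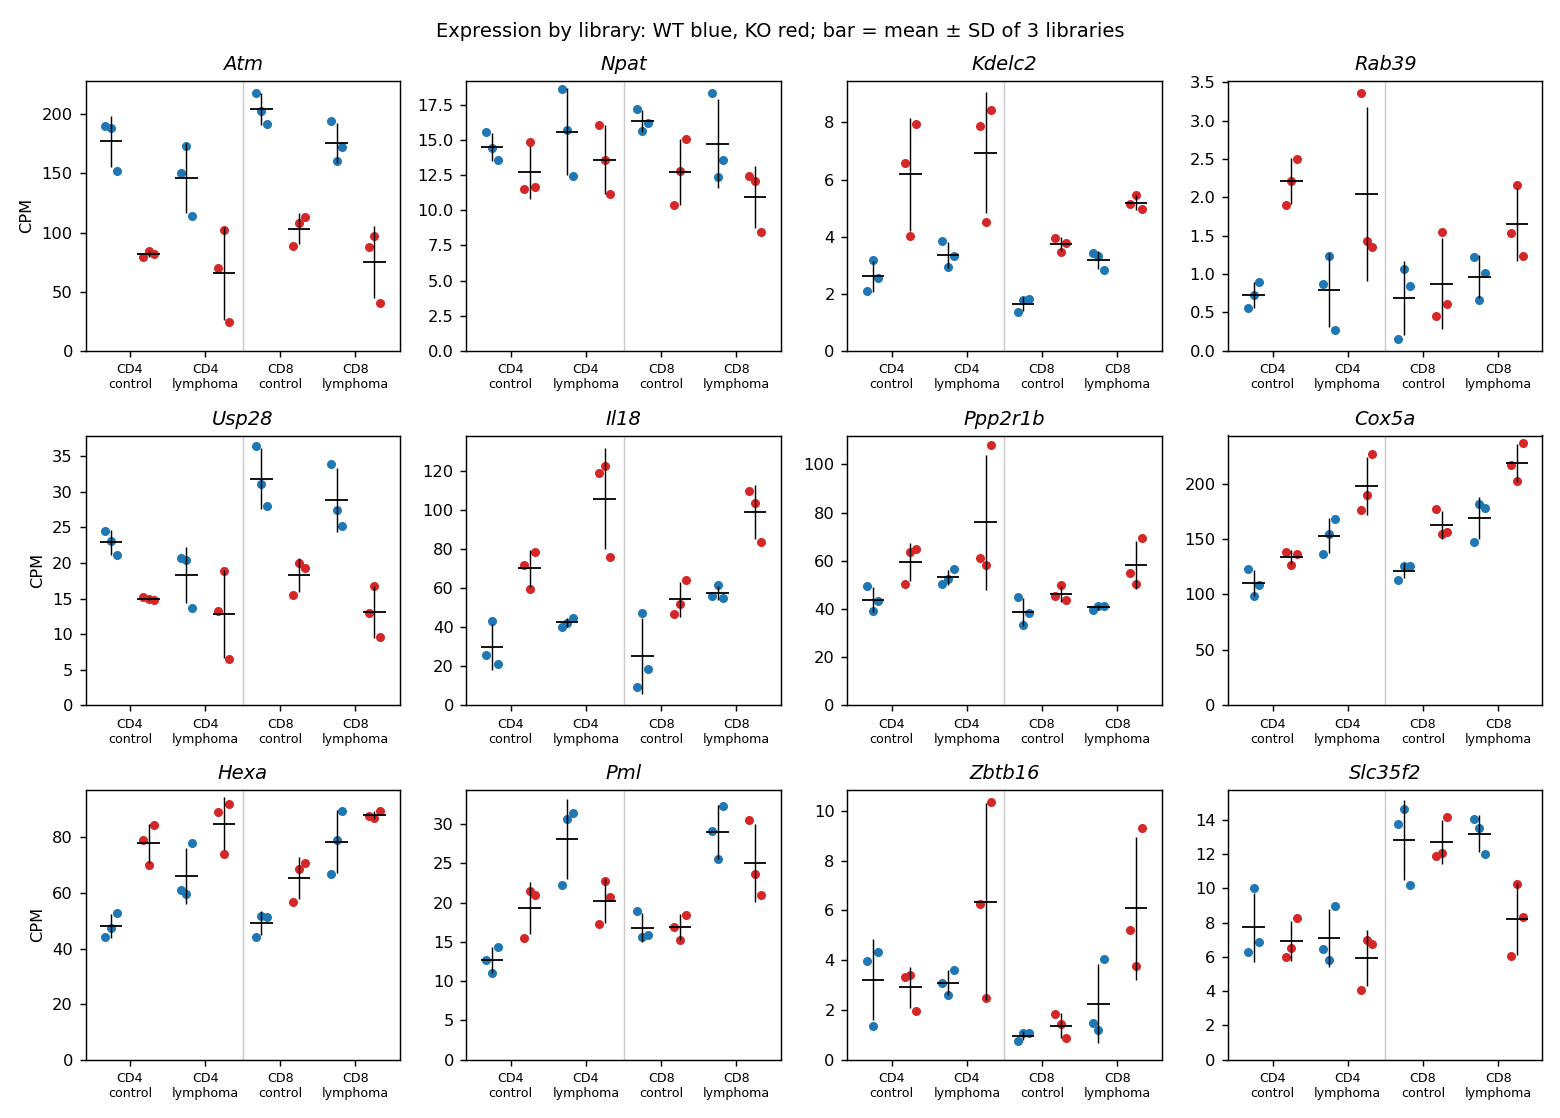
Level in CPM (vertical axes, from 0) of Atm and 11 members in each of 24 libraries, by cell type and condition (horizontal axes), with WT in blue, KO in red, and the mean ± SD of 3 libraries in black. Kdelc2 and Cox5a sit higher and Atm sits lower in all KO libraries than in all WT libraries of the same group pair, while Npat and Zbtb16 overlap in most.

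Among the immune members, Il18, 2.86 Mb from Atm, encodes a cytokine of the interleukin-1 family that promotes interferon gamma production by T and natural killer cells. In CD4 libraries it had 25.95, 43.2 and 20.9 CPM in WT and 72.1, 59.8 and 78.6 in KO controls, and 40.2, 42.4 and 44.8 in WT and 119, 123 and 76.02 in KO with lymphoma. In CD8 libraries it had 9.52, 47.4 and 18.8 in WT against 46.6, 51.8 and 64.5 in KO controls, and 55.8, 61.6 and 54.9 in WT against 110.0, 104 and 83.8 in KO with lymphoma. The genotypes overlapped only in CD8 controls, where WT control 2 stood above the other WT libraries. Il18 rose over the pools (1.11 ± 0.21, adjusted p = 0.0159, a level 2.15 times higher), in CD4 controls (1.21 ± 0.25, adjusted p = 0.0399) and in the CD4 average (1.26 ± 0.18, adjusted p = 0.00657). Its call over the pools held without any 1 pool (adjusted p up to 0.0492). The call in CD4 controls alone was lost without any 1 of 7 of the 12 libraries (WT control 1 or 3, each KO control, WT lymphoma 2 or KO lymphoma 1). Zbtb16, the transcription factor of innate-like T cells, did not pass (0.64 ± 0.33, adjusted p = 0.207).

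Macrophages are known to express Il18 and lysosomal hexosaminidase abundantly, and the level of macrophage markers moved with genotype in the same direction. The 14 monocyte and macrophage genes summed to 636 to 1179 CPM in WT and 1590 to 2162 in KO CD4 controls, and to 1256 to 1816 and 2312 to 2945 with lymphoma. In CD8 libraries they summed to 247 to 1309 in WT and 1407 to 1521 in KO controls, and to 1287 to 2011 and 2289 to 3090 with lymphoma. WT and KO libraries thus did not overlap in any of the 4 comparisons, and 0 of the 14 markers was at 0 in any library. With the mean level of these markers as a covariate, a fit chosen after seeing the data, no member was called over the pools and 1 of 13744 genes was. Il18 then differed by 0.48 ± 0.29, Hexa by 0.20 ± 0.13, Kdelc2 by 0.67 ± 0.30, Rab39 by 0.46 ± 0.49, Ppp2r1b by 0.61 ± 0.23, Usp28 by -0.52 ± 0.28 and Cox5a by 0.32 ± 0.14. Atm itself differed by -0.92 ± 0.38 in that fit and did not pass (adjusted p = 0.975). Since the marker level separates the genotypes, genotype and the level of these cells cannot be told apart in these libraries.

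Of the 9 members that act in membranes and secretion, Kdelc2, Rab39 and Hexa rose over the pools and none fell, where 6.39% of all genes rose and 2.95% fell. Hexa, 6.00 Mb from Atm, encodes the alpha subunit of lysosomal hexosaminidase. In CD4 libraries it had 44.1, 47.5 and 52.7 CPM in WT and 78.96, 70.2 and 84.4 in KO controls, and 61.04, 59.8 and 77.9 in WT against 88.97, 74.1 and 91.9 in KO with lymphoma. Among CD8 libraries the levels were 44.1, 51.9 and 51.2 in WT against 56.7, 68.6 and 70.7 in KO controls, and 66.7, 79.02 and 89.4 in WT against 87.9, 86.9 and 89.6 in KO with lymphoma. The genotypes did not overlap in controls of both cell types, and overlapped with lymphoma in both. Hexa rose over the pools (0.42 ± 0.08, adjusted p = 0.0163), in CD4 controls (0.69 ± 0.14, adjusted p = 0.0399) and in the CD4 average (0.52 ± 0.10, adjusted p = 0.0158). The call over the pools was lost without WT lymphoma 2 (adjusted p = 0.0545). In CD4 controls it was lost without any 1 of 7 of the 12 libraries (WT control 1 or 2, each KO control, WT lymphoma 2 or KO lymphoma 1), and in the CD4 average without WT control 1, WT lymphoma 1 or WT lymphoma 2. The other 6 members of this kind, Slc35f2, Exph5, Alg9, Man2c1, Commd4 and Scamp2, had pool differences from -0.31 to 0.63 and did not pass. Over all libraries Alg9, a mannosyltransferase of N-glycan synthesis, had 1.66 to 5.84 CPM in WT and 2.29 to 5.74 in KO, and the cytosolic mannosidase gene Man2c1 had 6.77 to 12.04 CPM in WT and 7.06 to 11.99 in KO. Commd4, of the COMM domain family, had 25.8 to 36.3 CPM in WT and 24.6 to 35.7 in KO, and Scamp2, of secretory carrier membranes, 47.1 to 77.2 CPM in WT and 52.3 to 73.9 in KO. The ranges of the genotypes overlapped for all 4.

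Among 7 mitochondrial and metabolic members only Cox5a passed over the pools, where 9.34% of all genes did. Cox5a, 3.98 Mb from Atm, encodes a nuclear-encoded subunit of cytochrome c oxidase. In CD4 libraries it had 123, 99.0 and 109 CPM in WT and 138, 126 and 136 in KO controls, and 137, 154 and 168 in WT against 177, 189.7 and 227 in KO with lymphoma. In CD8 libraries it had 113, 126 and 125 in WT against 178, 154 and 156 in KO controls, and 147, 181 and 178 in WT against 217, 203 and 237 in KO with lymphoma. All KO libraries were above all WT libraries in each comparison, though by small margins in CD4 libraries. Cox5a rose by 0.35 ± 0.07, adjusted p = 0.0178 over the pools and in the CD8 average (0.41 ± 0.09, adjusted p = 0.0197), with 0.32 ± 0.10, adjusted p = 0.0702 in the CD4 average. The call over the pools was lost without WT lymphoma 1 or WT lymphoma 2 (adjusted p up to 0.0527) and the CD8 call without WT lymphoma 1. The other 6, Acat1, Pts, Timm8b, Dlat, Fdx1 and Mpi, had pool differences from -0.27 to 0.04. Pts, an enzyme of tetrahydrobiopterin synthesis, was the lowest of them (-0.27 ± 0.10, adjusted p = 0.0886), with 25.3 to 43.2 CPM in WT and 19.9 to 41.1 in KO. The import chaperone gene Timm8b had 37.5 to 62.01 CPM in WT and 33.7 to 61.9 in KO, and Dlat, the E2 subunit of pyruvate dehydrogenase, 14.9 to 23.1 CPM in WT and 16.0 to 28.2 in KO. Fdx1, a mitochondrial ferredoxin, had 25.5 to 32.8 CPM in WT and 19.6 to 47.5 in KO, and Mpi, mannose phosphate isomerase, 4.63 to 9.22 CPM in WT and 4.73 to 7.997 in KO, so that genotypes overlapped in range for each.

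Usp28 was the 1 member called lower. It lies 4.397 Mb from Atm and encodes a deubiquitinase that takes part in the DNA damage response. Levels in CD4 libraries were 24.5, 23.1 and 21.1 CPM in WT and 15.2, 14.9 and 14.8 in KO controls, and 20.7, 20.3 and 13.7 in WT against 13.2, 18.9 and 6.53 in KO with lymphoma. The CD8 libraries had 36.4, 31.1 and 27.96 in WT against 15.5, 19.97 and 19.3 in KO controls, and 33.8, 27.5 and 25.2 in WT against 13.02, 16.8 and 9.55 in KO with lymphoma. KO libraries were below WT libraries without overlap except in CD4 lymphoma, and KO lymphoma 3 was the lowest in both cell types. Usp28 fell over the pools (-0.79 ± 0.16, adjusted p = 0.0186, a level 1.73 times lower), in CD8 lymphoma libraries (-1.14 ± 0.20, adjusted p = 0.0439) and in the CD8 average (-0.95 ± 0.14, adjusted p = 0.00442). The average call in CD8 libraries held without any 1 library, and the call over the pools was lost only without WT lymphoma 1 (adjusted p = 0.0556). In CD8 lymphoma libraries alone the call was lost without any 1 of 10 of the 12 libraries (all but WT control 1 and KO lymphoma 2). In CD4 libraries the average difference was -0.56 ± 0.21, adjusted p = 0.118. The genotype difference of CD8 minus that of CD4 libraries was -0.41 ± 0.26, adjusted p = 0.922.

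The other 7 members that act in the nucleus, Zw10, Npat, Sin3a, Neil1, Pml, Parp6 and Senp8, did not pass over the pools, with differences from -0.34 to 0.24. Zw10, of the kinetochore checkpoint, had 94.03 to 116 CPM in WT and 84.9 to 129 in KO, and Sin3a, the scaffold of a histone deacetylase corepressor, 30.5 to 42.5 CPM in WT and 20.6 to 39.4 in KO. Neil1, a glycosylase of base excision repair, had 4.71 to 10.1 CPM in WT and 3.96 to 8.71 in KO, and Senp8, a protease for NEDD8, 1.94 to 5.82 CPM in WT and 3.12 to 5.87 in KO. The genotypes overlapped in range for these 4. Parp6, a mono-ADP-ribosyltransferase, had 16.6, 12.9 and 14.9 CPM in WT and 10.1, 11.8 and 7.21 in KO CD4 lymphoma libraries, where the KO libraries were lower without overlap (-0.61 ± 0.21, adjusted p = 0.375). Pml, the scaffold protein of nuclear bodies and a target of interferon, had 12.7, 10.99 and 14.3 CPM in WT and 15.5, 21.5 and 21.01 in KO CD4 controls, with all KO libraries higher. With lymphoma it had 22.2, 30.7 and 31.4 in WT and 17.2, 22.8 and 20.7 in KO, and 1 KO library lay within the WT range and 2 below it. Its genotype difference was 0.60 ± 0.19 in controls and -0.47 ± 0.19 with lymphoma. The difference between these was -1.07 ± 0.27 (unadjusted p = 0.0018) and did not pass after adjustment (adjusted p = 0.9999). Beside Pml, the 14 type I interferon genes summed to 630 to 770.2 CPM in WT and 943 to 1630 in KO CD4 controls, and to 1709 to 2280 and 1253 to 2294 with lymphoma. Their part in the values of Pml was not tested.

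Of 11 signalling members 9 were tested over the pools, and Ppp2r1b rose, where 6.39% of all genes did. It encodes a scaffold subunit of protein phosphatase 2A, lies 2.54 Mb from Atm, and overlaps Sik2 at the 3′ end of both genes (50892801 to 50894229). In CD4 libraries Ppp2r1b had 49.4, 39.1 and 43.2 CPM in WT and 50.4, 63.5 and 64.9 in KO controls, and 50.5, 52.6 and 56.6 in WT against 61.3, 58.4 and 108 in KO with lymphoma. In CD8 libraries it had 44.9, 33.1 and 38.2 in WT against 45.4, 49.7 and 43.5 in KO controls, and 39.5, 41.3 and 41.1 in WT against 54.7, 50.3 and 69.2 in KO with lymphoma. KO lymphoma 3 was the highest in both cell types, and the genotypes overlapped in CD8 controls only. Ppp2r1b rose by 0.45 ± 0.12, adjusted p = 0.0424 over the pools and in the CD8 average (0.40 ± 0.10, adjusted p = 0.0368). Each of these calls was lost without any 1 of 10 of the 12 pools or libraries (the pool call was kept only without KO lymphoma 2 or 3, the CD8 call only without WT control 1 or KO lymphoma 2). Its partner Sik2, a salt-inducible kinase, had 11.5, 20.5 and 11.1 CPM in WT and 9.24, 9.35 and 7.29 in KO CD4 controls and differed by -0.18 ± 0.24, adjusted p = 0.649 over the pools.

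The other 7 signalling members tested over the pools besides Ppp2r1b and Sik2 had differences from -0.25 to 0.30. Among them Ptpn9, a tyrosine phosphatase, was the closest to passing (0.30 ± 0.09, adjusted p = 0.054), with 11.7, 11.7 and 11.1 CPM in WT and 13.5, 15.4 and 17.0 in KO in CD8 lymphoma libraries, without overlap. Csk, the kinase that restrains Src family kinases in T cell receptor signalling, had 83.4 to 136 CPM in WT and 92.9 to 144 in KO libraries (0.07 ± 0.09, adjusted p = 0.638), and Rdx, which links actin to the membrane, 128 to 160.2 and 112 to 147 (-0.08 ± 0.05, adjusted p = 0.319). Of 6 members that act on RNA, 5 were tested and none passed over the pools, where 9.34% of all genes did, with differences from -0.30 (Cwf19l2) to 0.22 (Rexo2). The 2 genes far from Atm were among these, with Alkbh8, a tRNA methyltransferase (34.7 to 45.4 CPM in WT and 23.8 to 44.4 in KO), at -0.14 ± 0.08, adjusted p = 0.248, and Cwf19l2, a splicing-related protein (40.96 to 152 CPM in WT and 22.3 to 90.5 in KO), at -0.30 ± 0.26, adjusted p = 0.449. Rbm7, of the nuclear exosome targeting complex, had 41.1 to 52.0 CPM in WT and 29.8 to 50.4 in KO, and Rexo2, an oligoribonuclease of mitochondria, 36.3 to 50.6 CPM in WT and 42.9 to 61.2 in KO (0.22 ± 0.07, adjusted p = 0.079).

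Low counts kept 3 members out of every filtered test, Zc3h12c, Layn and Dixdc1, with at most 2.44 CPM in any library. Another 2, Arhgap20 and Pih1d2, passed the filter only in the pools, where they differed by 0.23 ± 0.36 and 0.14 ± 0.43 and did not pass.

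Libraries could be compared without a model by asking whether the 3 KO libraries lay all above or all below the 3 WT libraries. In CD4 controls 8 members were higher and 9 lower in this way (18.6 and 15.1% of all genes tested), and in CD4 lymphoma libraries 7 and 2 (6.63 and 6.02% of all genes). In CD8 controls it was 4 and 5 (12.2 and 12.9% of all genes), and with lymphoma 7 and 5 (10.2 and 11.1%). Kdelc2 and Cox5a were separate and higher in all 4 comparisons, 2 of 39 members, where 1.34% of 12450 genes were separate in the same direction in all 4. Direction alone was shared over the 4 comparisons by 20 of 39 members, 8 higher and 12 lower, or 51.3%, where 43.5% of all genes tested did so. The CD4 and CD8 libraries of a pool come from the same mice, so these 4 comparisons are not independent of each other.

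**Figure D3:**
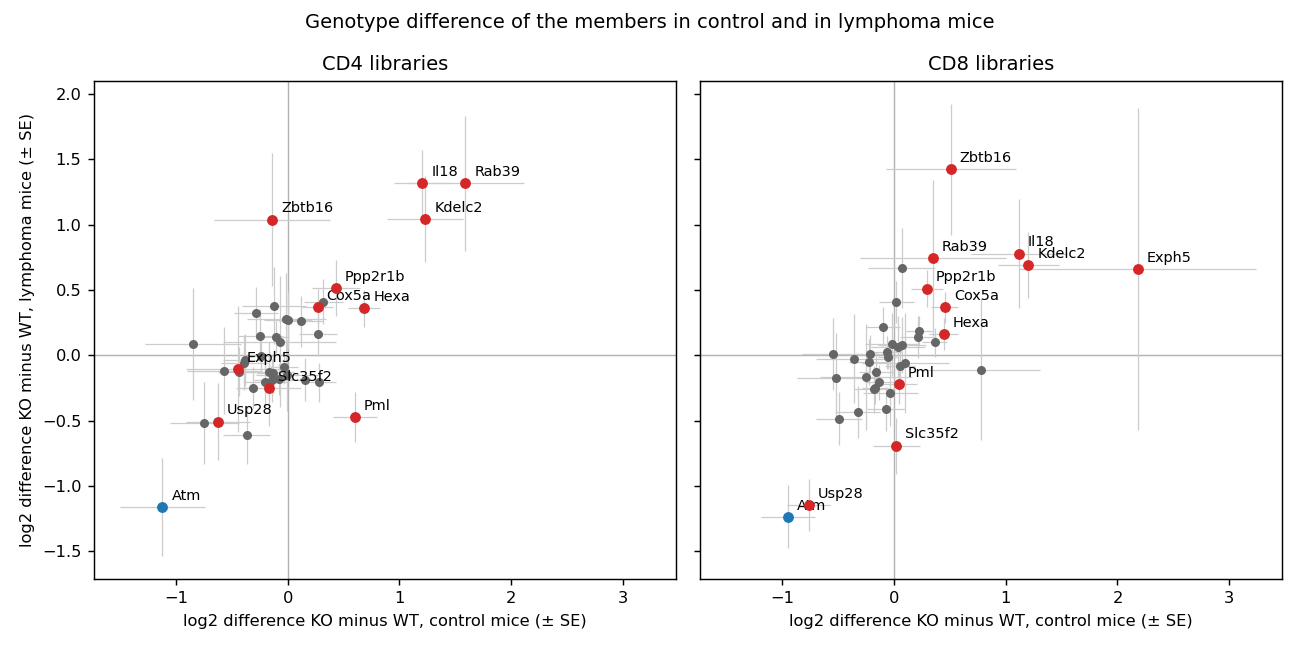
Difference between KO and WT (log2, ± SE) of Atm (blue) and the 39 members tested, in mice with lymphoma (vertical axis) against control mice (horizontal axis), for CD4 libraries on the left and CD8 libraries on the right. Red marks Kdelc2, Rab39, Usp28, Il18, Ppp2r1b, Cox5a, Hexa, Pml, Zbtb16, Slc35f2 and Exph5, and grey the other members. Pml in CD4 libraries lies at 0.60 in controls and -0.47 with lymphoma.

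Whether the genotype difference changed with lymphoma was tested as an interaction. The edgeR test called no member and no other gene (0%) in CD4 or CD8 libraries. An unadjusted p under 0.05 was given to 466 genes in CD4 and 442 in CD8 libraries, and DESeq2 called 1 gene in each and no member. Besides Pml, the smallest p among members belonged to Scamp2 in CD4 (-0.49 ± 0.21, unadjusted p = 0.039) and Slc35f2 in CD8 libraries (-0.71 ± 0.30, unadjusted p = 0.0348). Whether it differed between CD8 and CD4 cells was tested over all 24 libraries. No member passed by edgeR or DESeq2, with 0.0982% of 13232 genes called, and the smallest p was that of Acat1 (-0.64 ± 0.31, unadjusted p = 0.0492).

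Distance from Atm was then set against the share of genes called over the pools, for all genes with a position, Atm left out. Within 1 Mb 2 of 10 genes were called (20%), both of them members, Kdelc2 and Rab39. From 1 to 5 Mb it was 6 of 72 (8.33%), from 5 to 10 Mb 17 of 80 (21.2%), from 10 to 20 Mb 20 of 138 (14.5%), and over 20 Mb 43 of 461 (9.33%). On the other chromosomes 1179 of 12644 genes were called (9.32%). By cell type, the window from 5 to 10 Mb held 7 called of 77 in the CD4 average (9.09%, other chromosomes 6.32%). In the CD8 average it held 11 of 73 (15.1%, other chromosomes 6.39%). The share did not fall steadily with distance, and the nearest window holds few genes. Among genes between 1 and 5 Mb, 4 of 27 members and 2 of 45 other genes were called. Since the members were chosen with earlier results known, this contrast is not a blind comparison. Of the genes within 20 Mb of Atm that are no members, the 5 called with the smallest p lay 5.05 to 16.2 Mb from Atm. Rplp1, an acidic protein of the ribosomal stalk, fell by a difference of -1.35 ± 0.13 (adjusted p = 0.00111) at 8.38 Mb. The heat shock chaperone gene Hspa8 (0.49 ± 0.07), Dapk2 (1.68 ± 0.24), Nptn (0.45 ± 0.07) and Slc37a2 (0.91 ± 0.16) rose.

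**Figure D4:**
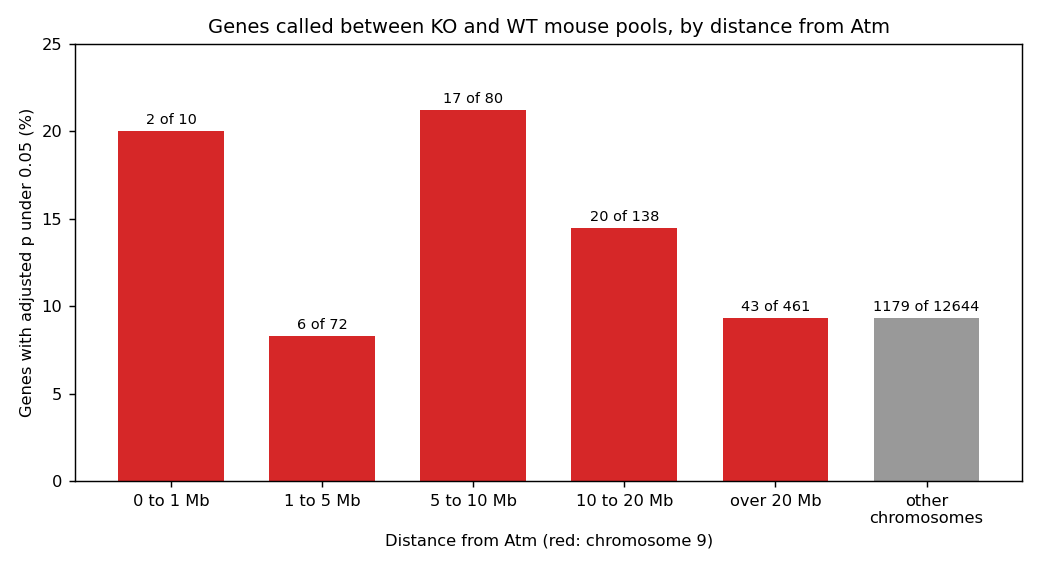
Share of genes with an adjusted p under 0.05 between KO and WT mouse pools (vertical axis, percent, from 0) in windows of distance from Atm on chromosome 9 (red) and on other chromosomes (grey), with the number called and tested above each bar. The share is 21.2% from 5 to 10 Mb and 8.33% from 1 to 5 Mb, against 9.32% on other chromosomes.

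The members also varied with the transplant, in the average over both genotypes. In CD4 libraries Cox5a (0.52 ± 0.10, adjusted p = 0.01) and Pml (0.61 ± 0.14, adjusted p = 0.0215) rose with lymphoma, 2 of 39, where 7.18% of all genes were called and 5.72% were higher. In CD8 libraries 6 of 39 rose and none fell, where 17.7% of all genes were called, 11.6% higher and 6.12% lower. These were Hexa (0.56 ± 0.09), Pml (0.69 ± 0.11), Cox5a (0.46 ± 0.09), Zbtb16 (1.68 ± 0.38), Kdelc2 (0.71 ± 0.19) and Il18 (1.02 ± 0.30), with adjusted p from 0.00367 to 0.0412. Pml had 15.2 to 18.9 CPM in CD8 control and 20.97 to 32.3 in CD8 lymphoma libraries, without overlap. Zbtb16 had 0.755, 1.07 and 1.08 CPM in WT and 1.83, 1.43 and 0.856 in KO CD8 controls, and 1.47, 1.195 and 4.07 in WT against 5.23, 3.76 and 9.31 in KO with lymphoma, where the KO libraries reached the highest levels. In CD4 libraries the call of Cox5a held without any 1 library, and that of Pml was lost without WT control 1 or 2, KO control 1, or WT lymphoma 2 or 3. In CD8 libraries Hexa, Pml, Cox5a and Zbtb16 kept their calls without any 1 library. There Kdelc2 lost it without WT control 1, KO control 2 or WT lymphoma 2, and Il18 without any 1 of 10 of the 12 (all but WT control 1 and 2).

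Other lists moved with lymphoma beside these members. Of 14 type I interferon genes 12 rose in CD4 and 14 in CD8 libraries, and of 14 monocyte and macrophage genes 5 rose and 1 fell in CD4 and 7 rose in CD8 libraries. All 7 progenitor genes rose in both, and of 8 platelet genes 7 rose in CD4 and 8 in CD8 libraries. In CD4 and CD8 libraries in turn, 6 and 8 of 10 mitosis genes, 4 and 6 of 10 neutrophil genes and 2 and 3 of 9 erythroid genes rose. Of 15 pan-T genes 2 fell in CD4 and 10 in CD8 libraries. Of 10 natural killer cell genes 1 rose and 6 fell in CD4 and 1 rose in CD8 libraries, and of 15 B cell genes 2 fell in CD4 libraries. The 5 markers of innate-like T cells, of which Zbtb16 is 1, summed to 8.61 to 13.3 CPM in WT and 16.4 to 19.2 in KO CD8 controls, and to 8.55 to 14.3 and 16.4 to 22.95 with lymphoma, with Sox13 or Il23r at 0 in 12 of 24 libraries. WT and KO did not overlap in this sum in either condition. Only 3 of the 5 genes passed the filter, and 0 of these were called between genotypes in CD8 libraries. As a list they did not move with lymphoma there, with 1 of 3 higher and a median difference of -0.20. The part of these cells and genes in the members' differences with lymphoma was not tested. In the fit with the macrophage markers no member was called with lymphoma in either cell type. That fit called only 0.0156% of all genes in CD4 and 0.206% in CD8 libraries, so it does not set the members apart from other genes.

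Between the cell types, Slc35f2 was higher in CD8 than in CD4 libraries, and Ppp2r1b, Kdelc2 and Zbtb16 were lower, 4 of 39 members, where 13.7% of all genes were called, 6.58% higher and 7.1% lower. Slc35f2 had 4.05 to 10.01 CPM in CD4 and 6.05 to 14.6 in CD8 libraries, and the ranges overlapped (0.74 ± 0.12, adjusted p = 0.000181). The differences were -0.33 ± 0.09 for Ppp2r1b, -0.47 ± 0.14 for Kdelc2 and -0.82 ± 0.27 for Zbtb16 (adjusted p = 0.0201, 0.0282 and 0.0491). Slc35f2 kept its call without any 1 of 24 libraries and Ppp2r1b without any but CD4 WT control 1 or CD8 WT control 2, while Zbtb16 lost it in 18 of 24 and Kdelc2 in 6. With the mouse pool as a block, 6 of 39 members (15.4%) and 18.6% of all genes were called, with Usp28 (0.36 ± 0.13 in the fit without the block) and Cox5a (0.18 ± 0.06) higher in CD8 libraries in addition.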

How the data were processed

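RNA of splenic T cells was sequenced with a 3′ tag protocol (QuantSeq FWD) in 24 libraries. The deposited table holds estimated counts per gene, all whole numbers. Salmon 0.11.3 and the build GRCh38 are named in the submitters' processing notes, without their role, and the sources used here state no other step. Of 34113 genes 2 were dropped because a cell held a letter, and 11473 had no count. Totals of 6470482 to 10196062 counts per library set the precision. In counts simulated for the pools, 68 of 100 genes changed 2-fold and 88 of 100 changed 4-fold were recovered.

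Genes were tested with edgeR 4.0.16 (R 4.3.3; quasi-likelihood, robust, trimmed-mean scaling, filterByExpr with a minimum count of 10 and total of 15) over the 12 libraries of a cell type, the 12 pools with CD4 and CD8 counts summed, or all 24 libraries, 13 comparisons in all, with Benjamini-Hochberg adjustment over all genes. Alternatives were other size factors, no filter, a filter of 30 counts in 3 libraries, limma 3.58.1 voom with sample weights, DESeq2 1.42.0, leaving out each library, the 6 libraries of a comparison alone, a replicate or pool block, and as covariates the share of mice whose identifier starts with B, Y-linked genes and, chosen after seeing the data, the mean log2 level of 14 monocyte and macrophage genes. Positions are from GENCODE M21 on GRCm38, found for 31740 genes, and promoters from RefSeq, GRCm38.p6.

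The members and lists were chosen with earlier results of these data known. Named genes were Atm, the 8 adjoining members, members called in any comparison, members separate in all 4 comparisons, and the 5 other called genes within 20 Mb of Atm with the smallest p. The other members are named with their level, and those singled out among them were chosen after their values were seen. Same-numbered WT and KO libraries correlated in their residuals at 0.171 to 0.322 in CD4 lymphoma, where the block called no gene. In CD8 lymphoma, from the same mice, the range was -0.0396 to 0.134, and in controls of both cell types -0.0438 to 0.157. Whether replicate numbers pair the pools was not settled by these values. Libraries of the same mice correlated at -0.0181 to 0.525 over 12 pairs.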

Additional observations from a re-analysis of the deposited data

How the results depend on the processing

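Numbers here are members called of those tested. DESeq2 called 1 in CD4 lymphoma, 3 in CD8 control, 2 in CD8 lymphoma and 7 in each of the CD4 and CD8 averages, and limma voom called 5 in CD4 control, 1 in CD4 lymphoma, 8 in the CD4 average, 4 in CD8 control, 0 in CD8 lymphoma and 7 in the CD8 average. Of all genes DESeq2 called 0.664, 2.96, 4.2, 11.8 and 12.7% in these comparisons in turn, and voom 11.6, 0.632, 19.1, 2.89, 0.174 and 9.83%, beside 12.8, 2.56, 20.5, 10.3, 0 and 17.9% of members by voom. The covariate for mouse identifiers left 0 in CD4 control, 0 in CD8 lymphoma and 1 in CD4 libraries with lymphoma against control (0.617, 0.142 and 2.4% of all genes). In the pools it gave 6 of 41 (5.38% of all genes), without Rab39 and Ppp2r1b. Identifiers that start with B belonged to every mouse of WT control 3, KO control 2 and KO control 3. In KO lymphoma 1 they belonged to 1 of 2 mice, and in the other pools to none. They were thus spread unevenly over the genotypes. The Y-linked covariate gave 1 in CD4 control, 8 in the CD4 average and 0 in CD8 lymphoma (2.8, 12.9 and 0.0553% of all genes), and the 6 libraries alone gave 4 in CD4 control and 0 in CD8 lymphoma (7.55 and 0.00821%). The monocyte and macrophage covariate left 0 in CD4 control, CD8 lymphoma, both averages, both lymphoma effects and the pools, with at most 0.261% of all genes called in any of these. In that fit the direction turned for Kdelc2 in CD4 control (-0.60), CD4 lymphoma (-0.35) and the CD4 average (-0.47), Usp28 in the same 3 (0.20, 0.085 and 0.14), Hexa in CD4 lymphoma (-0.073), and Rab39 in CD8 control (-0.42) and the CD8 average (-0.14), none called. The cause of these shifts was not tested.

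With the replicate number as a block, the pools gave 5 (987 genes in all, Rab39 and Ppp2r1b lost), the CD4 average 3 (Rab39 lost), the CD8 average 5 (Ppp2r1b lost, Hexa and Acat1 added), CD4 control 2 and CD8 lymphoma 0 (Usp28 lost), with 7.18, 6.36, 4.93, 1.84 and 0.134% of all genes, and other comparisons of genotype kept their number. Leaving out 1 library or pool gave 0 to 2 in CD4 control, 0 to 1 in CD8 control, 0 to 3 in CD8 lymphoma, 1 to 8 in the CD4 average, 2 to 5 in the CD8 average, 3 to 10 in the pools, 1 to 4 and 4 to 7 for lymphoma in CD4 and CD8 libraries, 2 to 5 between CD8 and CD4, and 0 in CD4 lymphoma, both interactions and the genotype difference between cell types. The difference of Rab39 in CD8 control ran from -0.35 (without KO control 2) to 0.78 (without WT control 2), and was -0.09 without WT control 1. Over all genes the pools gave 1 (monocyte and macrophage covariate) to 3401 calls (voom), against 1284. With 1 library or pool left out, the list of all called genes shifted too. It held 268 to 2727 genes in the pools, 224 to 1841 (CD4 average) and 205 to 1841 (CD8 average). In controls it held 0 to 580 (CD4) and 8 to 112 (CD8), and in CD8 lymphoma 1 to 978. For the lymphoma effect it held 375 to 2084 (CD4) or 1027 to 3123 (CD8), and between cell types 1554 to 2261. The ranges of members called therefore do not set them apart from other genes. Low counts kept Zc3h12c, Layn and Dixdc1 out of every filtered test.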
